A study of Drosophila melanogaster with 2 samples.

Results

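Binding of a Ptx1 fusion protein was described at 10 regulatory genes, grouped as gut regulators and members of their gene families. Among them are the odd-skipped genes bowl, drm, sob and odd, with their partner lin. The rest are the GATA genes srp, GATAe, grn and pnr, and the forkhead gene fkh. The genes were chosen by name, as 10 of 13968 coding genes, and a peak was assigned to a gene when its summit lay in the gene body or within 5000 bp on either side. Of the 6824 peaks of the series' conservative list on the named chromosome arms, 17 met this rule. The data came from chromatin immunoprecipitation and sequencing of 2 biological replicates of whole Drosophila melanogaster embryos aged 0 to 24 h. Both replicates were of the strain Ptx1-GFP, in which an insertion targets Ptx1 and the flies express Ptx1 fused to eGFP, and sonicated chromatin of 200 to 800 bp was precipitated; the description names an antibody against GFP and the antibody field names Ptx1. Both carried the insertion, so there was no contrast between groups, and no control library was analysed here. Whole embryos mix all tissues, so a peak cannot be assigned to gut cells. Peak lists carry no read depth, so precision rests on the 2 replicates alone.

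The authors ranked peaks by a strength score without a stated unit, which orders peaks within a list, and by the irreproducible discovery rate (IDR). IDR estimates, from how well peak ranks match between a pair of lists, the share of irreproducible peaks. The rate is given as a scaled score that grows with reproducibility. Thresholded lists, the conservative one and one for each replicate among them, keep peaks with a scaled score of at least 830, and the score is capped at 1000. The median conservative peak scored 129 (quartiles 86.1 and 229).

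Ptx1 is a paired-like homeodomain protein of the class that prefers TAATCC. The odd-skipped genes encode zinc finger proteins that pattern the ends of the fly gut and other epithelia. Bowl acts in the nucleus and is held in check by Lines, the product of lin, while Drumstick, from drm, binds Lines and relieves that block. GATA factors bind sequences with a GATA core. Serpent (srp) specifies the endoderm as well as blood and fat body, and GATAe acts after it in the differentiating midgut. Pannier (pnr) patterns the dorsal ectoderm and heart precursors, grain (grn) shapes the posterior spiracles, and Forkhead (fkh) is required in foregut, hindgut and salivary glands.

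The sequences at 9 of the summits show what the bound sites were made of. They are the 3 highest peaks at bowl and the highest at each other gene on arms 2L and 3R, with the weaker grn peak in place of the stronger because it holds GATAA on both sides of its summit. Each is 101 bases of the RefSeq dm6 sequence centred on the summit, written 5′ to 3′ in the gene's direction of transcription. Capitals mark matches on either strand. The motifs searched were the Ptx1-type core TAATCC with its weaker form TAAGCC, the general homeodomain core TAATTA, the GATA sequence GATAA with its longer form GATAAG (which contains the shorter one), the promoter element TATCGATA, and the short repeat GAGAG.
bowl, 220 bp upstream (chr2L:3771430-3771530, plus strand): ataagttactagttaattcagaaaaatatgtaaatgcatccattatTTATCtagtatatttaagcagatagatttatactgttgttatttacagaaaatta
bowl, intron (chr2L:3776713-3776813, plus strand): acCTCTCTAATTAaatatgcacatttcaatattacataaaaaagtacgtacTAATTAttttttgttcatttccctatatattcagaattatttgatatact
bowl, past the gene end (chr2L:3786398-3786498, plus strand): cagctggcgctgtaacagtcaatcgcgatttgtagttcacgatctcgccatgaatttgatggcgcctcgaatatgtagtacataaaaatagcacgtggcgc
drm, upstream (chr2L:3534623-3534723, plus strand): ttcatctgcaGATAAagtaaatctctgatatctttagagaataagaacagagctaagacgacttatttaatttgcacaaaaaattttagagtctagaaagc
sob, past the gene end (chr2L:3573481-3573581, minus strand): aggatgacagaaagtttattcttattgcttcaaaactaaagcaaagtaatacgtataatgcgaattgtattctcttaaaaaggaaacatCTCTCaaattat
srp, upstream (chr3R:15984554-15984654, plus strand): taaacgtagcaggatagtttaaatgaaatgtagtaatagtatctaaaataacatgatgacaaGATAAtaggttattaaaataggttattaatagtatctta
grn, intron (chr3R:8176543-8176643, minus strand): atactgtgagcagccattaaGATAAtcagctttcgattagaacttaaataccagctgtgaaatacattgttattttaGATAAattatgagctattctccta
pnr, 163 bp upstream (chr3R:16025866-16025966, plus strand): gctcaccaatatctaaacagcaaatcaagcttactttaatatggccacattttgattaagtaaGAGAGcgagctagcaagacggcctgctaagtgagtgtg
fkh, 226 bp upstream (chr3R:28585440-28585540, minus strand): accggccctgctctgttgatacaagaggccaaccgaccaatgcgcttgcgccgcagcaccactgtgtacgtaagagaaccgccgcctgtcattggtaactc

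Base composition at the 17 sites was close to that of all conservative summits, with 6 of the 7 bowl sites below their median in G and C, and the Ptx1-type core was not among the letters within 50 bp of any of the 17 summits. G and C made up 20.8% of the window at the highest bowl peak and 58.4% at fkh, the extremes of the 17. The median of the 17 was 29.7%, against 31.7% over all conservative summits, and 11 of the 17 lay below that value. Without bowl the median was 32.2%, and 5 of the 10 remaining sites lay below 31.7%. TAATCC and its weaker form TAAGCC were each in 0 of the 17 windows, against 3.81% and 4.37% of all conservative summit windows (8.07% with either), and 17 windows are too few to show a share lower than these. GATAAG was in 1 of the 17 (5.54% of all), TAATTA in 1 (10.7% of all), GAGAG in 3 (8.76% of all) and TATCGATA in 0 (1.42% of all). GATAA alone, chosen after the sequences were read, was in 7 of the 17, against 23.3% of all windows. The windows with GATAA were 3 at bowl and 1 each at drm, srp and grn, and 1 at lin. A match describes letters and not a bound site.

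**Figure D1:**
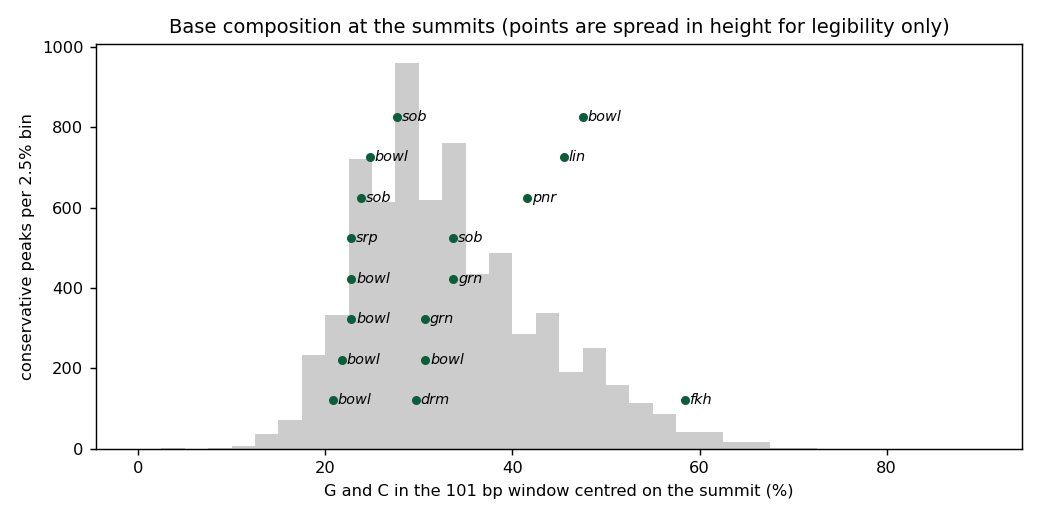
Percentage of G and C in the 101 bp window centred on the summit (x axis) for all 6824 conservative peaks (grey histogram, peaks per 2.5% bin on the y axis) and for the 17 peaks at the 10 genes (green points labelled by gene, spread in height for legibility only). The bowl, srp and sob points lie mostly at the AT-rich side, while fkh at 58.4%, one bowl peak at 47.5%, lin at 45.5% and pnr at 41.6% lie to the right.

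Of the 10 genes, bowl had the most peaks. A total of 8 had at least 1 conservative summit in the window, against 56.6% of all coding genes. The windows of the 10 were longer, with a median of 19.6 kb, against 12.2 kb for all coding genes. Of the 17 summits, 7 were at bowl, 3 at sob, 2 at grn, and 1 each at drm, lin, srp, pnr and fkh. Neither odd nor GATAe had one. At least 2 summits were found at 3 of the 10, against 29.2% of coding genes, and at least 3 at bowl and sob, against 13.6%. Density was 0.831 summits per 10 kb over the merged windows of the 10 genes, against 0.562 over the windows of all coding genes and 0.496 over the chromosome arms. Without bowl it was 0.549. A summit within 1000 bp of an annotated start was found for 4 of the 10 (bowl, lin, pnr and fkh), against 26.7% of coding genes.

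**Figure D2:**
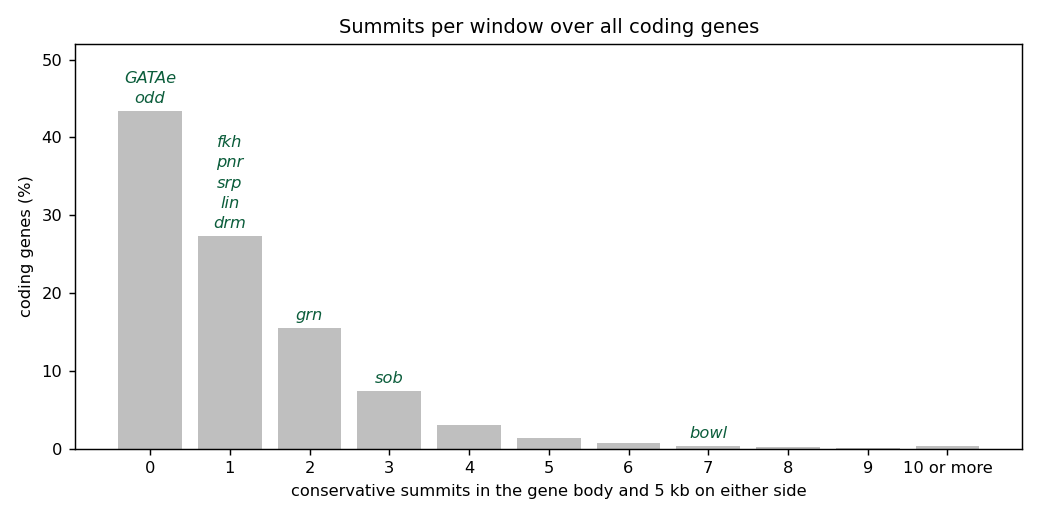
Share of the 13968 coding genes (y axis, percent) by the number of conservative summits in the gene body and 5 kb on either side (x axis), with the 10 genes written above the bar they fall in. Most of the 10 had 0 or 1 summit, sob had 3, and bowl, with 7, stands in the thin right tail.

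Few coding genes had as many summits in their window as bowl. At least 5 summits in the window were found for 3.09% of coding genes and at least 7 for 1.02% (143 of 13968). These are counts per window, and that of bowl, at 22.4 kb, was longer than the median coding window of 12.2 kb. The gene (FBgn0004893, 2L, 3771700 to 3784121) is transcribed from 4 annotated starts. Its highest peak (3771331 to 3771639) had its summit in intergenic sequence 220 bp upstream of the first start and scored 869, which ranked 169 in the conservative list, within its top 2.48%. The same site scored 484 in replicate 1 and 389 in replicate 2. At all 17 sites the score in the conservative list was above that of either replicate, but scores order peaks within 1 list only.

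Of the other 6 bowl sites, 4 lay in introns, 1 upstream and 1 past the gene end. A peak with its summit 1735 bp upstream, in an exon of the non-coding RNA gene lncRNA:CR43704, scored 150.0 (84.7 in replicate 1 and 62.4 in replicate 2). In the introns a peak 5063 bp from the first start scored 470 (273 and 194 in replicates 1 and 2). Its weaker neighbour at 4420 bp, ranked 4448, scored 56.8 in replicate 1 and 49.5 in replicate 2. The intronic peak at 6672 bp, 566 bp before the last annotated start, scored 99.8 (63.4 and 35.9), and passed the threshold in replicate 1 alone. The one at 9964 bp scored 165 (88.7 in replicate 1 and 68.2 in replicate 2). A last peak 2327 bp past the gene end scored 417 (217 and 197). Its nearest coding start, 719 bp away, is that of bark, which encodes a component of tricellular junctions. Apart from the peak at 6672 bp, all bowl sites passed the threshold in both replicates.

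**Figure D3:**
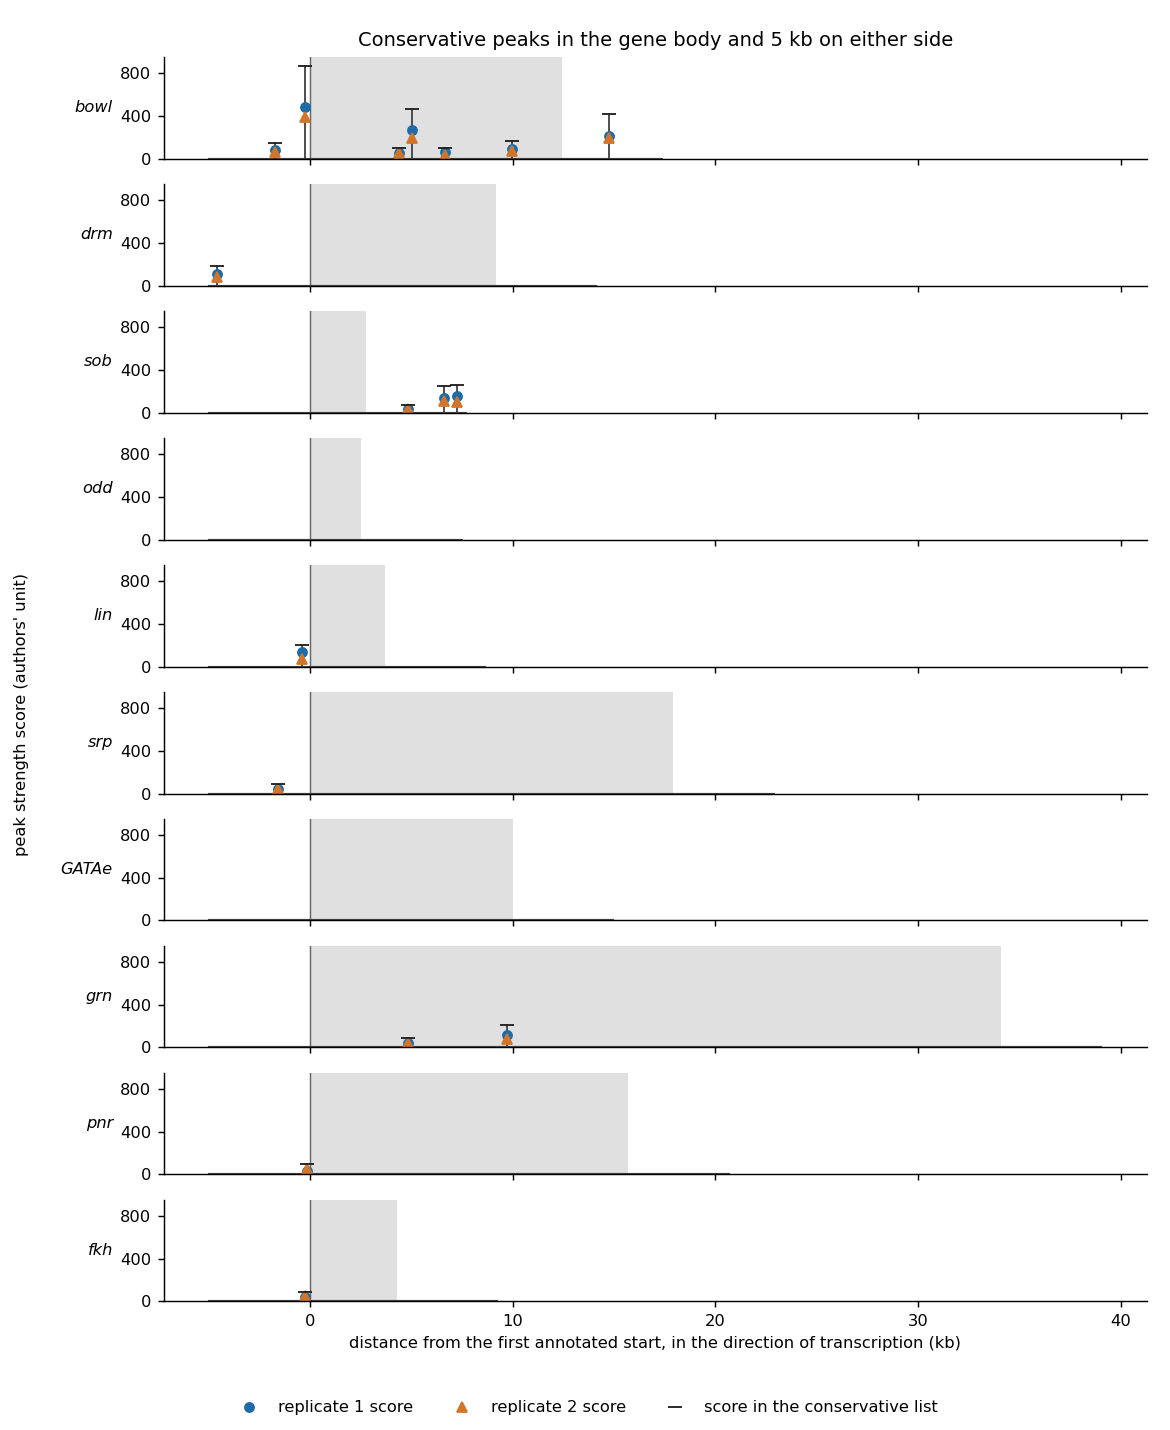
Position of each conservative peak relative to the first annotated start of its gene (x axis, kb in the direction of transcription) and its peak strength score (y axis, authors' unit) in the conservative list (black bar on a stem) and in replicate 1 (blue circle) and replicate 2 (orange triangle), with the gene body in grey and the searched window as a baseline. Sites of bowl flank and fill the gene and reach 869, those of sob all lie past its end, and the odd and GATAe windows are empty.

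At drm and sob the sites lay away from the starts. Drm (FBgn0024244, 2L, 3539247 to 3548423) had 1 peak, 4574 bp upstream, with a score of 189 (109 in replicate 1 and 80.1 in replicate 2), and the start of IFT57, an intraflagellar transport gene, was nearer at 3884 bp. The 3 peaks of sob (FBgn0004892, sister of odd and bowl, 2L, 3578013 to 3580769) were 2090, 3880 and 4482 bp past its end, with scores of 67.0, 252 and 256. The 2 stronger ones passed in both replicates, with 140 and 156 in replicate 1 and 108 and 99.5 in replicate 2. The weakest scored 35.6 in replicate 1 and 34.7 in replicate 2 and passed in neither list. Its scaled IDR score, 986, was the only one of the 17 below the cap, which 87.7% of all conservative peaks reached. The small coding gene CG43815 had the nearest coding start to all 3, and its start was 287 bp from the weakest.

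Odd, a pair-rule gene and the founding member of the family (FBgn0002985, 2L, 3604224 to 3606756), had no summit in its window in any thresholded list. Its best peak in the ranked list of the replicate pair, 5834 bp from the start, had a scaled IDR score of 484, below the minimum, and scored 23.9 in replicate 1 and 26.5 in replicate 2. The nearest conservative peak was 5566 bp past the gene end, just outside the window, with a score of 132. Over the 67.5 kb from the start of drm to the start of odd, which spans both genes, there were 9 conservative summits, or 1.33 per 10 kb. Apart from the 3 of sob, 6 of these lay outside every window, among them one of 351 (206 in replicate 1 and 148 in replicate 2) in an exon of lncRNA:CR43823, 7777 bp from sob. That site was stronger than any inside the windows of drm, sob and odd.

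Lin (FBgn0002552, 2R, 8914524 to 8918234) had 1 peak (8914042 to 8914214), which it shared with a neighbour. Its summit was 408 bp upstream of the lin start and 47 bp from the start of Pgi, the glucose-6-phosphate isomerase gene, transcribed the other way. The score was 202 (139 in replicate 1 and 74.8 in replicate 2), and both replicates passed. The ratio of replicate 1 to replicate 2 was 1.85, higher than at 93.9% of conservative peaks scored in both.

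Of the 4 GATA genes 3 had a conservative summit, against 56.6% of coding genes, and 3 of their 4 peaks scored below the conservative median of 129. Their windows held 0.358 (srp), 0.389 (pnr) and 0.454 (grn) summits per 10 kb, against 0.562 over the windows of all coding genes. At srp (FBgn0003507, 3R, 15986152 to 16004085) a peak 1548 bp upstream scored 84.3 (43.2 in replicate 1 and 39.9 in replicate 2), with a rank of 5217 of 6824, and was in neither replicate's own thresholded list. GATAe (FBgn0038391, 3R, 16009105 to 16019133) had none, and its best ranked peak, in an intron 1649 bp from the start, had a scaled IDR score of 689 and a score of 64.2 (31.8 in replicate 1 and 24.5 in replicate 2). Pnr (FBgn0003117, 3R, 16026079 to 16041796) had a peak 163 bp upstream of its first start with a score of 92.3 (35.4 and 54.4 in replicates 1 and 2). Grn, elsewhere on 3R (FBgn0001138, 8147368 to 8181444), had 2 peaks, both in introns. The one at 9741 bp scored 205 (120 in replicate 1 and 79.2 in replicate 2), the highest at any GATA gene, and passed in both. The one at 4851 bp scored 86.5 (41.4 and 44.2).

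Fkh (FBgn0000659, 3R, 28580976 to 28585264) had 1 peak, 226 bp upstream of its first start (28585305 to 28585674). It scored 89.0 (39.6 in replicate 1 and 50.2 in replicate 2). It is the most GC-rich of the 17 sites, at 58.4%, a value above that of 98.2% of conservative summits.

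The sites differed in which replicate carried them. Of the 17 peaks, 12 had a thresholded summit within 100 bp in replicate 1, against 69.9% of all conservative peaks, and 14 in replicate 2, against 64.4%. Both replicates had one at 11, against 56.5%, and neither had one at 2 (the weakest sob peak and the srp peak), against 22.2%. The 11 comprised 9 of the 11 odd-skipped peaks, the lin peak and the stronger grn peak. Those of pnr and fkh and the weaker one of grn passed in replicate 2 and not in replicate 1, a pattern found in 7.91% of all conservative peaks. Among the 303 conservative peaks scoring between 86.5 and 92.3, the range of these 3, the share was 25.7%, and 38.0% showed the opposite pattern. That range was chosen after their values were seen. Replicate 1 scored higher than replicate 2 in 14 of the 17. The median ratio was 1.29, against 1.25 over all 6182 conservative peaks scored in both, of which 22.1% had a ratio below 1.03. The other 3 were again pnr (0.651), fkh (0.789) and the weaker grn peak (0.936), and 13.9% of the 6182 had a ratio below 0.936. The pnr ratio was lower than at all but 0.987% of them. Its replicate summits lay 52 and 58 bp from the conservative summit on opposite sides, farther apart than the 100 bp used for matching. Whether both scores belong to 1 site was not tested. With 2 replicates the difference between the ratios of these 3 peaks and the rest was not tested.

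**Figure D4:**
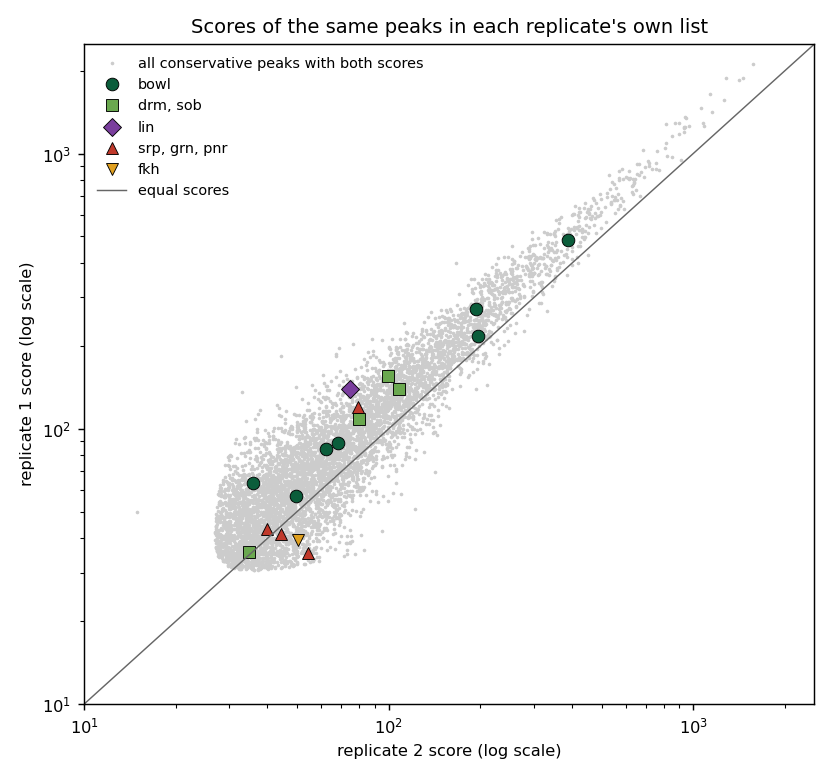
Score in replicate 1 (y axis) against replicate 2 (x axis), both on log scales, for the 6182 conservative peaks scored in both (grey) and for the 17 peaks by gene (coloured symbols), with a line at equal scores. The odd-skipped and lin peaks lie above the line, while pnr, fkh and the weaker grn peak lie below it.

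The count of genes with a site therefore moved with the replicate used. In replicate 1 alone, 5 of the 10 genes had a summit in the window (bowl, drm, sob, lin and grn), against 51.4% of coding genes. In replicate 2 alone 8 had one, against 48.7%. Within 1000 bp of a start it was 2 genes in replicate 1 (bowl and lin), against 23.5% of coding genes, and 6 in replicate 2, against 21.9%. The 6 were bowl, lin, pnr and fkh with srp and grn, whose promoter peaks in replicate 2 had no conservative counterpart. The other thresholded list of the series added an intronic peak at GATAe and so gave 9 of 10, against 58.7%, with 4 of 10 near a start, against 28.0%.

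**Figure D5:**
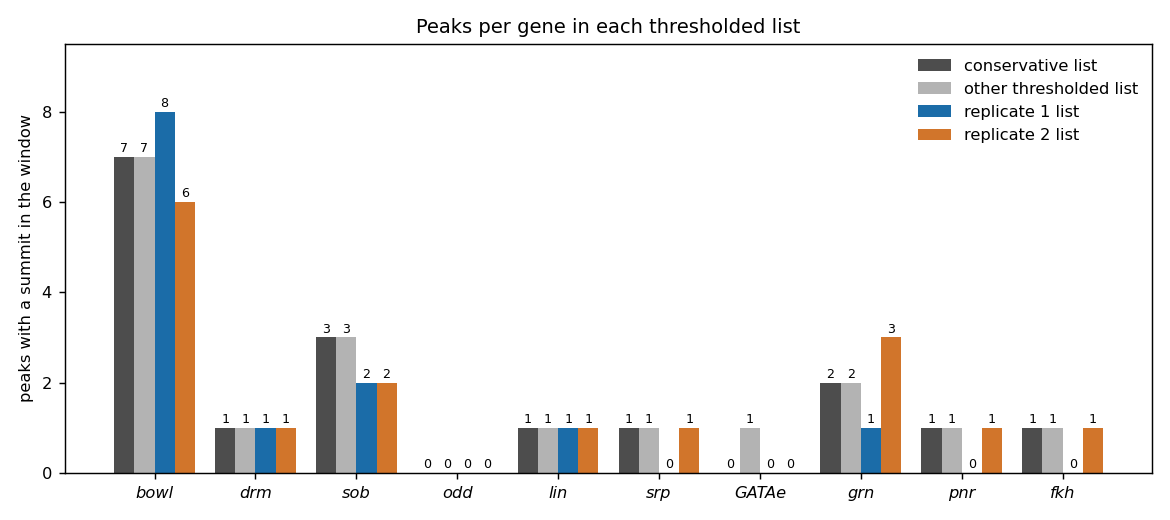
Number of peaks with a summit in the gene body or within 5 kb (y axis) for each of the 10 genes (x axis) in the conservative list (dark grey), the other thresholded list (light grey), replicate 1 (blue) and replicate 2 (orange). Bars of bowl, drm, sob and lin are of similar height in all lists, while srp, pnr and fkh have no bar in replicate 1.

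Some sites lay close to the limits of the rule. The 5000 bp limit admitted the drm site at 4574 bp and a sob site at 4482 bp, and left out sites at 5400 bp from bowl (score 265), 5566 bp from odd (132) and 5950 bp from drm (116). Below the IDR minimum, the best remaining peaks of the replicate pair had scaled scores of 689 at GATAe, 628 at drm, 593 at srp, 545 at fkh and 516 at lin. At bowl the best was 450, and pnr, grn and sob had 388, 294 and 166.

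Other genes of gut patterning were counted in the same way. In a list of 22 further regulators, 12 had a conservative summit in the window, against the 56.6% of coding genes given above, and 4 had one within 1000 bp of a start, against 26.7%. The most was at ush, which encodes the cofactor of GATA factors, with 13 summits and a highest score of 349 (203 in replicate 1 and 144 in replicate 2). These are counts per window, and the ush gene (2L, 476220 to 540560) is longer than bowl. The highest score in the list was 812 at the homeobox gene otp (422 and 386), 12975 bp from its nearest start. Others were dpp (436), which encodes a BMP ligand, the forkhead-domain gene bin (414), the hindgut and posterior gene cad (313), the apical polarity gene crb (306), the Wnt gene wg (164) and esg (121). The fifth GATA gene, GATAd, had 2 summits, with scores up to 107. No conservative summit lay in the windows of byn, hkb, tll, D, kni, bap, Ser, en, dome or upd1.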

How the data were processed

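The 2 replicates of Ptx1-eGFP embryos form 1 group, per the labels. The listing deposited with the peaks names assembly dm6 and IDR output, and aligner and peak caller were not given in the sources read. The deposited columns used were the peak strength score, the scaled IDR score and the −log10 q value, all made by the authors. Summits were placed on Ensembl release 115 genes, and sequence was read from RefSeq Release 6 plus ISO1 MT, the same assembly. Peaks off the named chromosome arms were dropped. A replicate's score is that of the nearest summit within 100 bp in its own ranked list. Members and lists were chosen with earlier results of these data known, so no test was made over them, and their counts stand beside those of all coding genes or all conservative peaks. All 10 genes are named, with up to 8 other gut genes by score and the nearest coding genes that are not among the 10. Named outside that rule, after their values were seen, were GATAd and the other gut genes with no conservative summit in the window. Alternatives changed the list, the replicate, the flanks, start windows, ranking, overlap and motif windows. Counting and motif steps were tested on simulated data. The work used Python (3.11.15) with pandas (2.3.3), numpy (2.4.6), matplotlib (3.10.9) and scipy (1.17.1).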

Additional observations from a re-analysis of the deposited data

Results flagged for a closer look

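In 4 places a thresholded list other than the conservative one held a peak in a window of the 10 genes with no conservative summit within 100 bp, a signal outside the main counts. At srp, replicate 2 had a peak 361 bp upstream of the first start (3R, 15985621 to 15985960, score 42.3), where replicate 1 had no ranked summit within 100 bp. The scaled IDR score was 900 in replicate 2 and 54 for the replicate pair. At grn, replicate 2 had one 379 bp upstream (3R, 8181653 to 8181992, score 43.8), where replicate 1 scored 13.2. GATAe had a peak in the other thresholded list of the series (3R, 16010569 to 16010938, score 64.2), with a scaled IDR score of 897 there and 689 in the replicate pair. At bowl, replicate 1 had a peak of score 2.2, with a −log10 q of 0.00804, 196 bp from a conservative summit. Its scaled IDR score was at the cap of 1000, although neither replicate 2 nor the replicate pair had a summit within 100 bp. It is counted in the replicate 1 totals, among them the 8 peaks at bowl.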

How the results depend on the processing

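The 17 summits became 10 with a 1000 bp flank, 26 with 10000 bp, and 10 without bowl, chosen after seeing the data. Left-out replicates gave 13 to 16. The 8 genes with a summit became 5 with a 1000 bp flank and 5 to 8 with 1 replicate, and genes with a summit near a start (4) were 2 to 6. The density of 0.831 per 10 kb was 0.549 without bowl and 0.635 to 0.782 with 1 replicate. Of coding genes, 48.7% to 51.4% had a summit in the window with 1 replicate, 58.7% in the other thresholded list, 53.5% at the IDR cap, and 34.7%, 41.5% and 71.4% with flanks of 1000, 2000 and 10000 bp. Near a start the shares were 21.9% to 23.5% with 1 replicate, 28.0% and 24.8% for those lists, and 17.8%, 22.8% and 33.1% for windows of 250, 500 and 2000 bp. TAATCC was in 1 of the 17 windows with 100 bp either side. Its share over all conservative summits was not counted at that longer window. Of the 70 alternatives for these results, 47 stayed within 1.5 times the count or the replicate spread, some of the values above among them. For single genes and motifs this held in 106 of 139, with a binomial interval replacing the spread for ranks at fkh, pnr and srp. The cause was not tested. No paired analysis was possible because both samples form 1 group. Without read totals, a peak missing in 1 replicate cannot be told apart from one that its depth does not show.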
